A study of Mus musculus with 6 samples.

Results

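The genes described here are 10 grouped as cholesterol efflux and liver X receptor genes, namely Nr1h3, Nr1h2, Rxra, Abca1, Abcg1, Abca9, Mylip, Scarb1, Apoc1 and Pltp. They were taken by gene name from the 15954 genes of the deposited table, and all 10 were measured. The libraries came from microglia of LACTB enzymatically dead (ED) mice, homozygous for the S162I substitution in the catalytic site of this mitochondrial enzyme, and of wild-type (WT) mice, 3 mice per genotype and 1 library per mouse. All mice were 3 months old, the substitution was carried by the whole animal and not limited to microglia, and microglia were collected from dissociated brain with beads against CD11b, a surface protein that other myeloid cells also carry. Since the study measured cholesterol efflux in LACTB-depleted human myeloid cells, the question asked of these libraries was how the transcripts of the efflux pathway stood in microglia lacking LACTB activity in the brain.

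Cells cannot degrade the cholesterol ring, so a macrophage that has taken up membranes or myelin must store the cholesterol as ester or pass it to lipoproteins outside the cell. Liver X receptors (LXRs) are nuclear receptors that sense oxidised cholesterol and desmosterol. Bound to DNA as pairs with a retinoid X receptor (RXR), they switch on exporters of cholesterol, apolipoproteins that receive it and a ligase that removes the receptor for further uptake. In the brain, microglia use this pathway when they clear myelin debris.

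Values are normalized read counts, that is, reads divided by a size factor of each library, and libraries held 23394686 to 28122336 reads in the listed genes. All 12 microglia markers were measured, with Csf1r, the receptor for the growth factors that maintain microglia, at 281379 ± 7064 in ED and 299672 ± 23159 in WT libraries (SD, n = 3 each). Lactb itself was at 1458, 1524 and 1491 in ED and 1471, 1563 and 1393 in WT libraries, and gene counts do not read the substituted base, so they do not check the genotype. Markers of endothelium, mural cells, neurons and other brain cells were also present, none at 0 in any library. The levels of some are given beside the genes they moved with. Markers of monocytes and neutrophils, 10 genes, summed to 1122, 712 and 4019 in ED and 1340, 2632 and 810 in WT libraries. One of them, S100a9, had 169, 73.1 and 1059 in ED and 266, 523 and 120 in WT libraries. The part of such cells in the values of ED mouse 3 was not tested. Because each library is a bulk sample, fewer cells of a type and less RNA per cell cannot be told apart.

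None of the 10 genes passed the test for a difference between ED and WT microglia (limma on log2(value + 1), Benjamini-Hochberg adjustment over all genes, adjusted p = 1.00 for each). The same test called 0% of all 15954 genes at an adjusted p under 0.05, so the count for the 10 genes equals that of the whole table. At an unadjusted p under 0.05 there was 1 of the 10, Apoc1, beside 290 of all genes, or 1.82%. For 0 of the 10 genes did the ED and WT values stand apart without overlap, beside 5.74% of all genes. The log2 fold changes of ED over WT had a median of -0.03, beside -0.0033 for all genes, with 7 of the 10 lower and 3 higher. Leaving Apoc1 aside, the other 9 lay between -0.13 and 0.11.

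**Figure D1:**
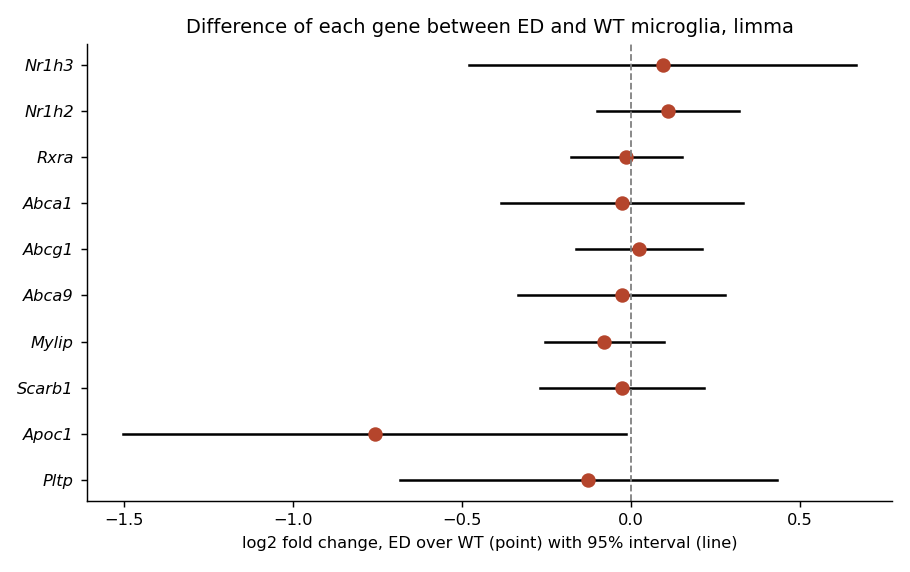
The log2 fold change of ED over WT (x axis) for each of the 10 genes (y axis), with points for the limma estimate and lines for its 95% interval. The intervals of 9 genes hold 0, that of Apoc1 runs from -1.50 to -0.01, and the narrowest are those of Rxra and Mylip.

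The 95% intervals differed in width between the genes. As percent differences of ED from WT, they were narrowest for Rxra, from -11.5% to 11.0%, and for Mylip, from -16.3% to 7.11%. For Abcg1 the interval ran from -10.7% to 15.6% and for Abca1 from -23.4% to 25.8%. Nr1h3 and Pltp had the widest of those holding 0, from -28.2% to 58.6% and from -37.7% to 34.8%.

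**Figure D2:**
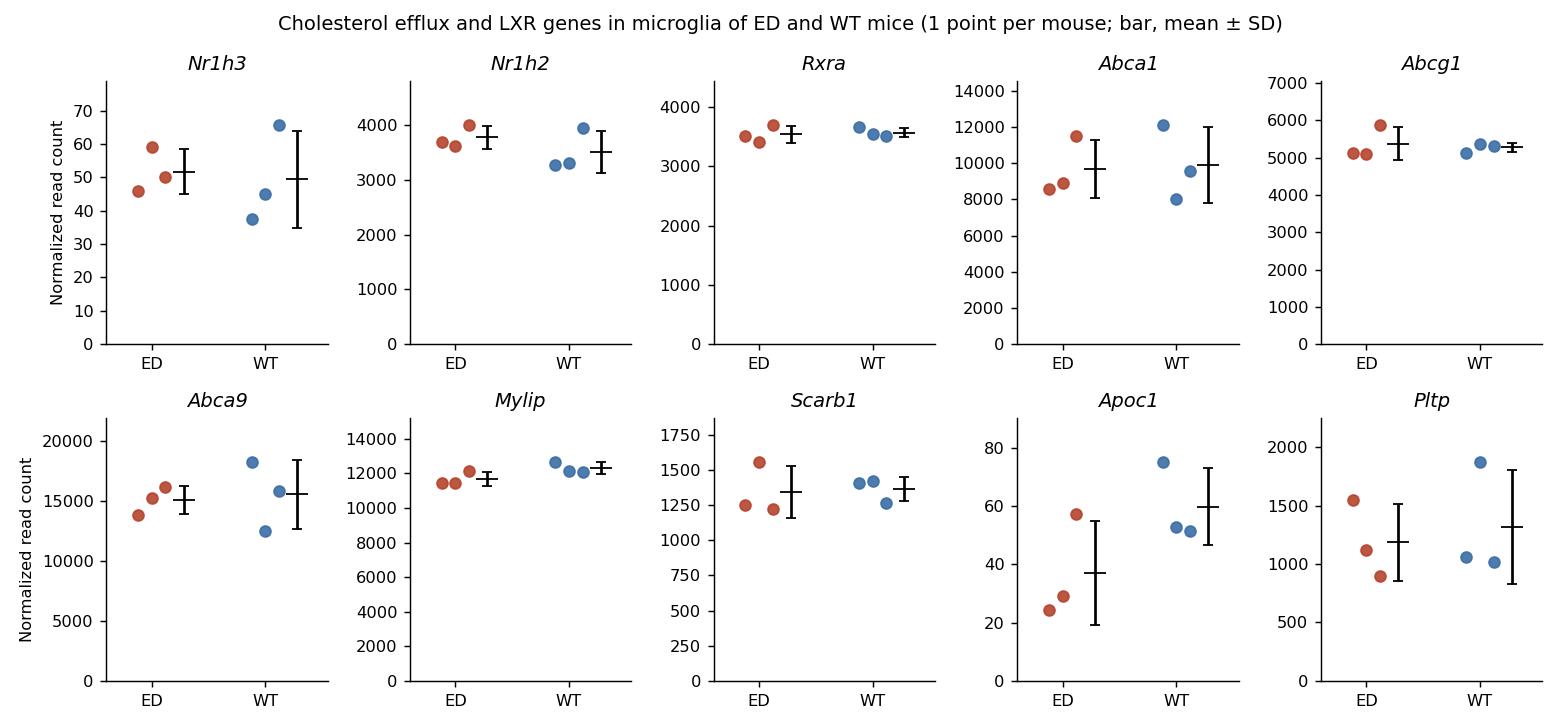
Normalized read count (y axis, from 0) of each of the 10 genes in the 3 ED and 3 WT libraries, 1 point per mouse, with the mean ± SD beside the points. ED and WT points overlap in every panel, and the widest scatter between mice is in Apoc1 and Pltp.

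The receptors came first in the pathway. Nr1h2, which encodes LXR-beta, the form present in most tissues, had 3699.8, 3623 and 4005 in ED against 3264, 3310.3 and 3946 in WT libraries. ED libraries were higher except that WT mouse 3 exceeded ED mice 1 and 2, so the groups overlapped. This gave a log2 fold change of 0.11 (SE 0.09, limma unadjusted p = 0.265, exact two-sided permutation p = 0.3, of a smallest possible 0.1). Without WT mouse 3 it was 0.20 (limma unadjusted p = 0.041, adjusted p = 0.86). In that fit 912 of all genes were at an unadjusted p under 0.05, beside 290 with all libraries. Leaving out any other single library gave Nr1h2 log2 fold changes of 0.06 to 0.14.

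Nr1h3 encodes LXR-alpha, the form best known from liver and macrophages. It had 45.9, 59.1 and 50.1 in ED against 37.7, 45.0 and 65.7 in WT libraries, with the lowest and the highest values both in WT. Its log2 fold change was 0.09 (SE 0.25, limma unadjusted p = 0.721). As the spacing of the values implies, these were 35 to 60 reads in a library, and the exact Poisson interval of the lowest, WT mouse 1, ran from 26.2 to 52.4, which covers counting error only. Nr1h3 also overlaps the predicted gene Gm13783 on the same strand, whose mean was 10.2.

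Nr1h2 exceeded Nr1h3 in every library. Per kilobase of exon, the scale on which levels of different genes can be set side by side, the ratio of Nr1h2 to Nr1h3 was 60.4, 46.0 and 59.9 in ED and 65.0, 55.1 and 45.0 in WT libraries. On this scale Nr1h2 averaged 1086 ± 92.5 and Nr1h3 20.1 ± 4.06 over the 6 libraries (SD, n = 6). That placed Nr1h2 above 93.3% and Nr1h3 above 23.8% of the listed genes.

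Rxra, the RXR partner of both receptors, had 3504, 3411 and 3698 in ED against 3659.7, 3539 and 3509 in WT libraries. The extreme values were both in ED libraries, and the highest was only 1.08 times the lowest. ED differed from WT by a log2 fold change of -0.01 (SE 0.07, limma unadjusted p = 0.857). The scatter of Rxra between mice of a genotype (residual SD of log2 values 0.05) was larger than that of only 6.8% of the 1000 genes nearest to it in mean level.

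Abca1 encodes the transporter that hands cholesterol and phospholipid to lipid-poor apolipoproteins, and its loss in people causes Tangier disease. It had 8591, 8891 and 11496 in ED against 12114, 7993 and 9591 in WT libraries. WT libraries held both the highest and the lowest value, and ED mouse 3 was close to WT mouse 1. Between the genotypes Abca1 had a log2 fold change of -0.03 (SE 0.16, limma unadjusted p = 0.869, exact two-sided permutation p = 0.9).

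Abca1 is a known LXR target, and its promoter holds an LXR response element, in which 2 copies of the hexamer AGGTCA are spaced by 4 bases. The 250 bases before the RefSeq start of each gene were searched on both strands for this arrangement with at most 3 mismatches in the 12 fixed bases. RefSeq promoters (GRCm38.p6) were at hand for 7 of the 10 genes, with 9 starts in all, and 2 of the 9 held a match. They are shown as the stretches closest in letters to the element among the 9 starts searched, in an LXR target and in the gene of its DNA-binding partner. Capitals mark the matched 16 bases, and both stretches read 5′ to 3′ along the gene.
Abca1, chr4:53159925-53159984, minus strand: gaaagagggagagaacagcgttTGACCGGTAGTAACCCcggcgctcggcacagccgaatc
Rxra, chr2:27709212-27709271, plus strand: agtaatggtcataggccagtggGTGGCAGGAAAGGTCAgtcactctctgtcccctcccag
In Abca1 the match lies on the opposite strand, from 67 to 52 bases before the start. In Rxra it lies on the strand of the gene, from 58 to 43 bases before an internal start. Of all 32851 promoters searched, 18.5% hold a match this close, so a match alone describes the letters and does not show whether LXRs bind there.

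Abcg1 encodes a transporter that supplies cholesterol to high-density lipoprotein and, with Abca1, is among the best known LXR targets of macrophages. It had 5136, 5096 and 5878 in ED against 5130.3, 5378 and 5312 in WT libraries. ED mouse 3 was the highest of all 6 and the other 5 lay close together. For Abcg1 the log2 fold change was 0.02 (SE 0.08, limma unadjusted p = 0.784).

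Abca9 belongs to the same transporter family as Abca1, and in human macrophages its transcript is known to respond to cholesterol uptake. It had 13847, 15283 and 16174 in ED against 18282, 12534 and 15814 in WT libraries. As for Abca1, WT mouse 1 was the highest and WT mouse 2 the lowest, with all ED libraries between them. Abca9 had a log2 fold change of -0.03 (SE 0.14, limma unadjusted p = 0.845).

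Abca1 and Abca9 put the 6 libraries in the same order, WT mouse 1, ED mouse 3, WT mouse 3, ED mouse 2, ED mouse 1 and WT mouse 2 from high to low. Of the 45 pairs among the 10 genes, 1 shared its order of libraries. The root mean square difference between the log2 values of Abca1 and Abca9, each centred over the libraries, was 0.09. The other 8 genes differed from Abca1 by 0.19 for Mylip to 0.56 for Pltp. Both genes are long, with 10.4 kb of exon in Abca1 and 8.05 kb in Abca9.

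Long and short genes moved apart between these libraries in general. The 1155 genes with at least 10 kb of exon and a mean of at least 100 had median centred log2 values of -0.06, 0.00 and 0.04 in ED and 0.13, -0.13 and 0.03 in WT libraries. That is the order in which Abca1 and Abca9 put them. The 270 genes under 1 kb had 0.09, 0.04 and -0.13 in ED and -0.04, 0.13 and -0.05 in WT libraries, close to the opposite order. With each library centred on genes of like length, an alternative chosen after the values were seen, the limma SE was 0.13 for Abca1 and 0.11 for Abca9, and both log2 fold changes stood at -0.02. In the same fit the SE was larger for Apoc1 (0.38), Nr1h2 (0.101, from 0.0936), Nr1h3 (0.26) and Scarb1 (0.111, from 0.108). It was smaller for Pltp (0.218, from 0.248), Abcg1 (0.073, from 0.083), Rxra (0.062, from 0.073) and Mylip (0.0765, from 0.0791). The part of transcript length in the scatter of Abca1 and Abca9 was not tested.

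**Figure D3:**
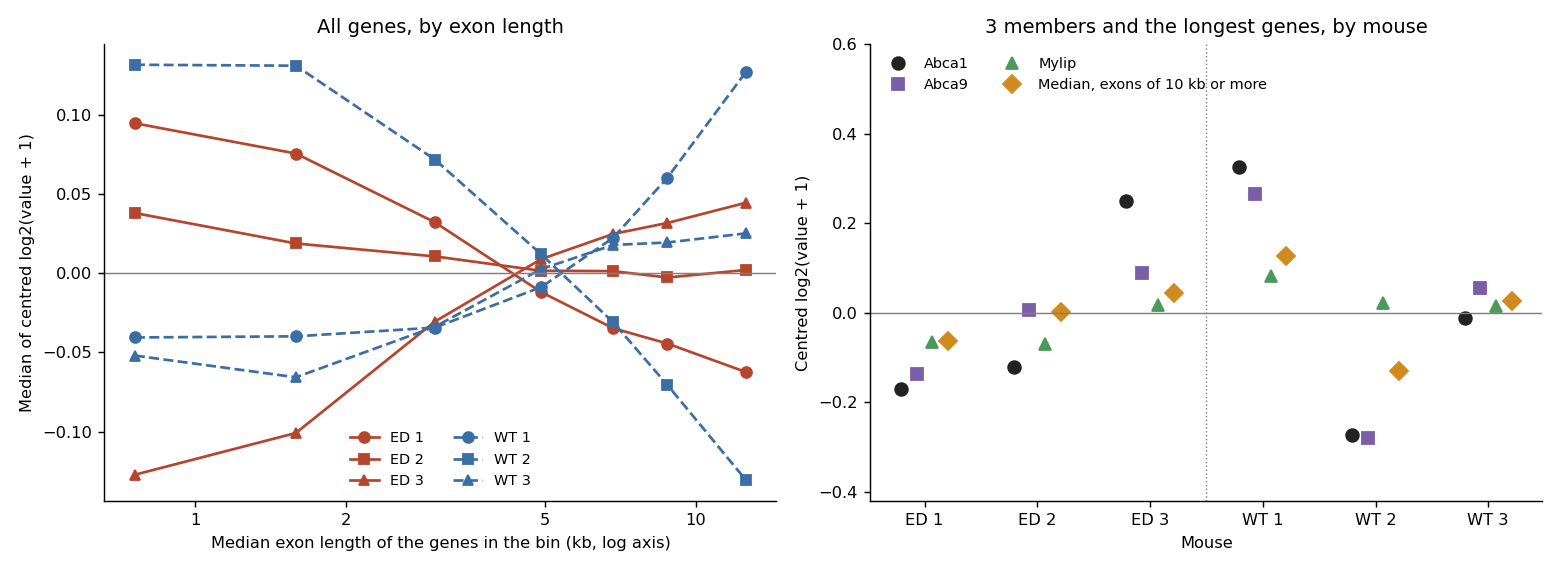
Left, the median of log2(value + 1), centred over the libraries (y axis), of genes grouped by exon length (x axis, log scale), 1 line per mouse. Right, the centred log2 values of Abca1, Abca9 and Mylip and the median of genes with at least 10 kb of exon in each mouse. WT mouse 1 and WT mouse 2 lie at opposite ends for long genes, at 0.13 and -0.13, and so do Abca1 and Abca9.

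The 5 genes whose values over the 6 libraries were most like those of Abca1, among genes with a mean of at least 100, were Pcnt, Peg10, Tnrc18, Dock4 and Spen. Their root mean square differences from Abca1 were 0.04 to 0.06 on the centred log2 scale, smaller than that of Abca9, and their exons came to 6.67 to 22.9 kb. Pcnt, which encodes a centrosome protein, had 1047, 1075 and 1299.9 in ED against 1399.6, 932 and 1087 in WT libraries. Likeness over 6 libraries that share a length pattern describes these libraries and cannot show whether the genes share control.

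Mylip, also called Idol, encodes a ubiquitin ligase that LXRs switch on and that sends the low-density lipoprotein receptor for degradation. It had 11442, 11416 and 12125 in ED against 12683, 12154 and 12094 in WT libraries. The WT values were higher except that ED mouse 3 exceeded WT mouse 3, so a narrow overlap remained. The log2 fold change was -0.08 (SE 0.08, limma unadjusted p = 0.346, exact two-sided permutation p = 0.2). Its scatter between mice (residual SD of log2 values 0.04) was larger than that of only 4.5% of the 1000 genes nearest in mean level.

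Scarb1 encodes scavenger receptor BI, which exchanges cholesterol with high-density lipoprotein in both directions. It had 1252, 1558 and 1219.7 in ED against 1403, 1419 and 1263 in WT libraries, with both extremes in ED. For Scarb1 the log2 fold change was -0.03 (SE 0.11, limma unadjusted p = 0.813).

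Apoc1 showed the largest difference of the 10 genes, and it did not pass the adjusted threshold. It encodes a small apolipoprotein, lies next to Apoe on chromosome 7 (GRCm38, 19689481 to 19692660, minus strand) and is induced by LXRs in macrophages. It had 24.4, 29.1 and 57.4 in ED against 75.3, 52.9 and 51.5 in WT libraries. ED mice 1 and 2 were the lowest of all 6, while ED mouse 3 was below WT mouse 1 alone. The means were 36.9 ± 17.9 in ED and 59.9 ± 13.4 in WT libraries (SD, n = 3 each), and the log2 fold change was -0.76 (SE 0.33, limma unadjusted p = 0.047, adjusted p = 1.00, exact two-sided permutation p = 0.3).

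The Apoc1 values rested on few reads and on single libraries. As the spacing of the values implies, there were 26, 29 and 63 reads in ED and 70, 54 and 47 in WT libraries. The exact Poisson intervals of the values, for counting error only, were 15.9 to 35.7 for ED mouse 1 and 37.8 to 68.4 for WT mouse 3, and that of ED mouse 3, 44.1 to 73.5, covered the values of WT mice 2 and 3. Without ED mouse 3 the log2 fold change was -1.12 (unadjusted p = 0.0034) and without ED mouse 1 it was -0.52 (unadjusted p = 0.162), both from limma. Over all alternative settings the unadjusted limma p of Apoc1 ran from 0.0034 to 0.165.

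Marker lists of other cells shared the order of Apoc1 over the libraries only in part. The summed value of 12 neuronal markers, all measured and none at 0, ranged over 2658 to 3489 in ED and 3842 to 4110.4 in WT libraries. The genotypes thus stood apart for this sum, with its lowest value in ED mouse 1, where Apoc1 was also lowest. Of these 12 markers 7 were lower in ED at an unadjusted limma p under 0.05, beside 1.82% of all genes in either direction. At the adjusted threshold 0 of them were called. The sum of 12 genes that respond to tissue dissociation was 146154, 237655 and 227162 in ED and 247483, 298233 and 202718 in WT libraries, lowest in ED mouse 1 like Apoc1 but higher in ED mouse 2 than in WT mouse 3. Their part in the Apoc1 values was not tested. Apoe, the abundant neighbour of Apoc1, had 90887, 73941 and 84200.4 in ED against 93055, 95068 and 81596 in WT libraries. Its log2 fold change was -0.12 (SE 0.14, limma unadjusted p = 0.420), and its lowest library was ED mouse 2, not ED mouse 1.

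Pltp encodes phospholipid transfer protein, which remodels high-density lipoprotein and is a known LXR target. It had 1547, 1117 and 898 in ED against 1059.6, 1877 and 1015 in WT libraries, so the highest value was in WT and the lowest in ED. Its log2 fold change was -0.13 (SE 0.25, limma unadjusted p = 0.622) and stood at 0.16 without WT mouse 2 and at 0.06 without ED mouse 3. The scatter of Pltp between mice of a genotype (residual SD of log2 values 0.45) was larger than that of 99.6% of the 1000 genes nearest in mean level.

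Sums of vascular markers moved with Pltp between libraries. The sum of 10 endothelial markers was 4471, 3668 and 3314 in ED and 3938, 7251 and 3514 in WT libraries. The sum of 11 markers of fibroblasts and mural cells, the contractile cells on vessels, was 2233, 1441 and 1239 in ED and 1602, 3545 and 1351 in WT libraries. WT mouse 2 was the highest, ED mouse 1 the next and ED mouse 3 the lowest for Pltp and for both sums. Of the endothelial markers of highest mean, Flt1 had 623, 539 and 548 in ED and 696, 1348 and 600.1 in WT libraries. Pecam1 had 1655, 1528 and 1306 in ED and 1529.7, 1626 and 1309 in WT libraries. It followed Pltp in part, with ED mouse 1 highest, WT mouse 2 next and ED mouse 3 lowest. Its highest value was only 1.27 times its lowest, beside 2.09 times for Pltp. The mural genes Rgs5 and Acta2 made up much of the other sum, at 1181 and 1055 in WT mouse 2, and 7 of the 11 markers of that list had a positive log2 fold change. All of these markers were measured and none was at 0. Both sums had WT mouse 1 above ED mouse 2, unlike Pltp. Pltp has 2.56 kb of exon. For genes with a mean of at least 100, medians were again grouped by exon length. Those under 1 kb and of 1 to 2 kb put the 6 libraries in the order of Pltp. Those of 2 to 4 kb also had WT mouse 2 highest and ED mouse 1 next, but WT mouse 1 lowest. The parts of these markers and of exon length in the Pltp values were not tested.

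**Figure D4:**
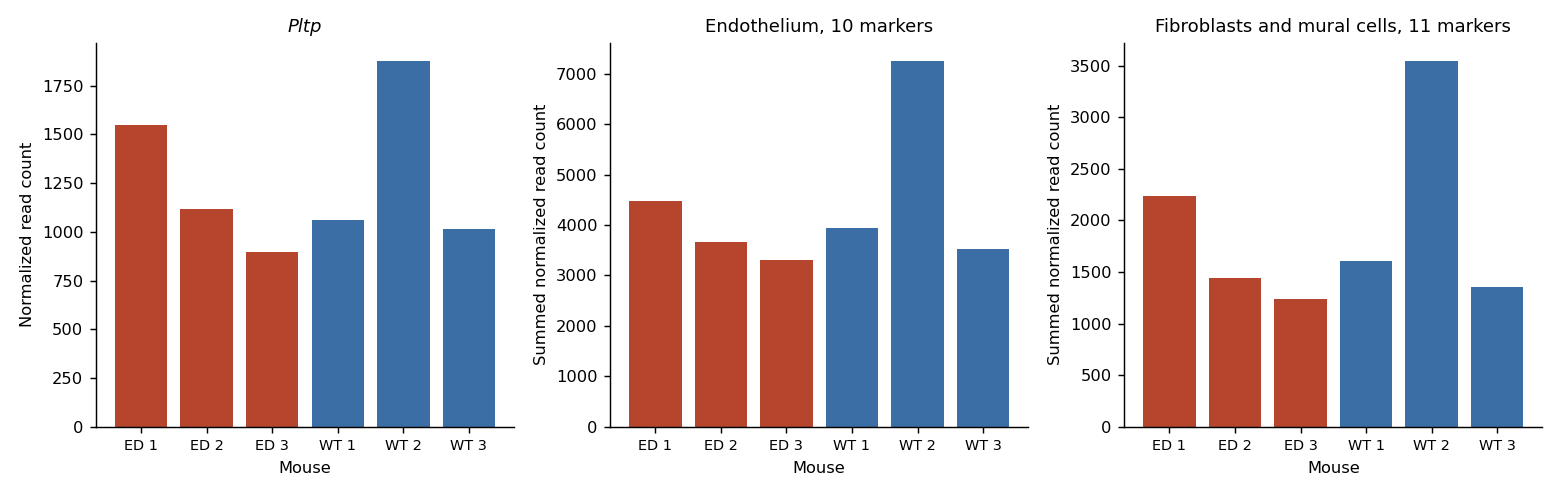
Normalized read count of Pltp and summed normalized read counts of 10 endothelial markers and of 11 fibroblast and mural cell markers (y axes, from 0) in the 3 ED and 3 WT mice, 1 bar per mouse. WT mouse 2 is the highest in each panel and ED mouse 3 the lowest, at 1877 and 898 for Pltp.

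Pltp ends against the 3′ end of Ctsa, which lies on the opposite strand of chromosome 2 (Pltp 164839518 to 164857711, Ctsa 164832873 to 164841032, GRCm38). Ctsa, a lysosomal protease gene, had a mean of 34360.1. The labels and methods do not say if counting used strand, so reads of Ctsa cannot be told apart from those of Pltp where the genes overlap. Ctsa itself had 35145, 34215 and 33428 in ED against 33473, 37473 and 32427 in WT libraries.

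Levels per kilobase of exon set the 10 genes in order. Averaged over the 6 libraries, Mylip stood highest at 3707 ± 149 and Abca9 next at 1904 ± 247 (SD, n = 6). Below them came Nr1h2 at 1086, Abca1 at 944 ± 160.5, Abcg1 at 729 ± 40.4 and Rxra at 651 ± 19.6. Pltp was at 489 ± 148, Scarb1 at 159 ± 15.3, Apoc1 at 65.1 ± 25.4 and Nr1h3 at 20.1. The ranges over the libraries overlapped between neighbours for Nr1h2 and Abca1, Abca1 and Abcg1, and Rxra and Pltp, and stood apart for the other neighbours. Mylip thus exceeded 98.3% of the listed genes and Apoc1 41.8% of them. Dividing by the longest annotated transcript in place of all exons kept the order of the means but moved the levels, among them Scarb1 to 437 and Nr1h2 to 1822. On that scale Abca9 overlapped Nr1h2 and Pltp overlapped Scarb1, while Nr1h2 and Abca1 stood apart.

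Between the transporter genes, the ratio of Abca1 to Abcg1 per kilobase of exon was 1.18, 1.23 and 1.38 in ED and 1.66, 1.05 and 1.27 in WT libraries. Both extremes were in WT. The ratio of Abca9 to Abca1 was 2.08, 2.21 and 1.81 in ED and 1.94, 2.02 and 2.12 in WT libraries. For both ratios the ED and WT values overlapped.

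Other genes of the pathway were taken from 5 lists, which together held 94 measured genes. The limma test called 0 of the 94 at an adjusted p under 0.05, as it did for all genes. At an unadjusted p under 0.05 there were 2, or 2.13%, beside 1.82% of all genes. These were Lpl, with a negative log2 fold change of ED over WT, and Abcg3, with a positive one. Over the 94 genes 55 had a negative and 39 a positive log2 fold change, with a median of -0.01.

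Partners and coregulators of LXR counted 20 measured genes of 22, 11 of them higher and 9 lower in ED (median log2 fold change 0.01). This split rested on single libraries, with 3 lower without ED mouse 1, 5 without WT mouse 1 (median 0.08), 6 without WT mouse 3 and 13 without WT mouse 2 (median -0.13). The coactivator gene Ncoa3 had 5792, 6668 and 7138 in ED against 7054, 5796 and 7172 in WT libraries. For this gene the genotypes overlapped over nearly their whole range. The gene of the nuclear receptor Pparg had the smallest unadjusted p of those higher in ED, at 18.7, 14.0 and 10.03 in ED against 6.45, 7.83 and 13.1 in WT libraries (log2 fold change 0.60, SE 0.41). The genotypes overlapped, and with means near the lowest of the table few reads were behind these values. Among those lower, it was the coactivator gene Ppargc1a, at 32.8, 27.0 and 31.9 in ED against 44.1, 34.3 and 36.1 in WT libraries (log2 fold change -0.31, SE 0.24, limma unadjusted p = 0.229). Its ED and WT values stood apart, as did those of 5.74% of all genes in either direction.

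Of 22 other LXR target genes 17 were measured, and 15 of these had a negative log2 fold change, beside 51.4% of all genes. The median over the 17 was -0.08, beside -0.0033 for all genes. None passed the adjusted threshold. Across the scalings, filters and left-out libraries tried, 13 to 15 of them were lower. Several marker lists also had an uneven split. Lower in ED were 11 of 12 microglia markers (median -0.04), 10 of 12 dissociation genes (median -0.29), 11 of 12 neuronal markers (median -0.40) and 9 of 10 endothelial markers (median -0.42). Border-associated macrophage markers went the other way, 10 of 11 higher (median 0.15). Their part in the split of the LXR targets was not tested. Lpl, the lipoprotein lipase gene, had 1352, 1636 and 1572 in ED against 2073, 2029.7 and 1551 in WT libraries. WT mouse 3 fell among the ED mice, and the log2 fold change was -0.30 (SE 0.12, limma unadjusted p = 0.037, adjusted p = 1.00). Mertk, a receptor for apoptotic cells, had 21367, 22789 and 24082 in ED against 24113, 19969 and 22887 in WT libraries. Mlxipl, the gene of the glucose-responsive factor ChREBP, was among the 2 that were higher (log2 fold change 0.15, unadjusted p = 0.340).

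The 12 further ABCA and ABCG transporter genes measured, of 15, had 4 higher, 8 lower and a median of -0.01. With libraries scaled to equal totals, or without WT mouse 1, 5 were lower and the median was above 0. Abcg3 had 425, 357 and 383 in ED against 324, 295 and 298 in WT libraries, so the genotypes stood apart, as for 5.74% of all genes. Its log2 fold change was 0.34 (SE 0.11, limma unadjusted p = 0.013, adjusted p = 1.00). Abcg4, a sterol transporter gene close to Abcg1 in sequence, had 26.2, 18.0 and 37.4 in ED against 31.2, 47.0 and 39.4 in WT libraries. The genotypes overlapped at these low values, and the log2 fold change was -0.55 (SE 0.32, limma unadjusted p = 0.113). Abca7, a phospholipid transporter gene in which human variants are linked to Alzheimer's disease, had 2351, 2317 and 2899 in ED against 2617, 2092 and 2937 in WT libraries.

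Lipoproteins and their receptors had 7 higher and 13 lower of 20 measured genes, of 26 listed, with a median of -0.06. The endocytic receptor gene Lrp1 had 39041, 42861 and 48938 in ED against 58957, 32979 and 42829 in WT libraries, with the extremes in WT mice 1 and 2 as for Abca1. The scavenger receptor gene Msr1 had 341, 261 and 283 in ED and 246, 263 and 265 in WT libraries (log2 fold change 0.18, unadjusted p = 0.193).

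Intracellular cholesterol handling and oxysterol enzymes had 15 higher and 15 lower of 30 genes, all measured, and a median of 0.00. Without WT mouse 2 there were 10 lower and without WT mouse 3 there were 19. Soat2, which encodes an enzyme that esterifies cholesterol for storage, had 351, 441 and 571 in ED against 267, 228 and 449 in WT libraries. WT mouse 3 exceeded ED mice 1 and 2, and the log2 fold change was 0.56 (SE 0.25, limma unadjusted p = 0.0502, adjusted p = 1.00). Npc2, the gene of a lysosomal cholesterol carrier, had 16586 ± 1474 in ED and 17423 ± 1938 in WT libraries (SD, n = 3 each).

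**Figure D5:**
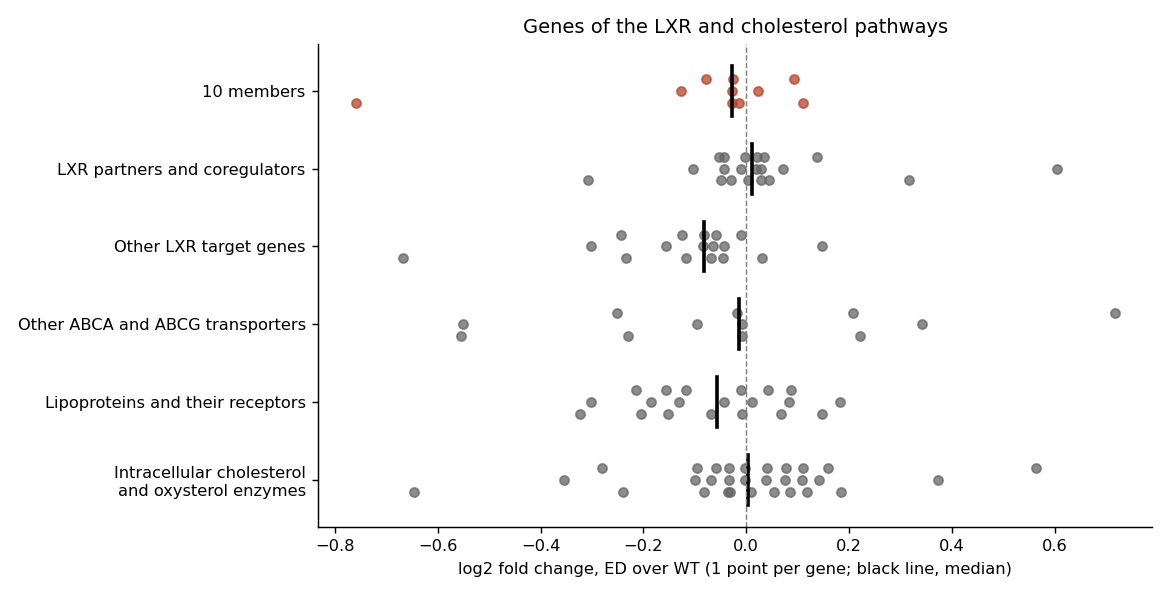
The log2 fold change of ED over WT (x axis) of the 10 genes and of the measured genes of 5 pathway lists (rows), 1 point per gene, with a black line at each median. The medians lie between -0.08 for other LXR target genes and 0.01 for LXR partners and coregulators, and no point passed the adjusted threshold.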

How the data were processed

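Genotype and mouse number came from the sample titles. Per the submitters' processing notes, the tools were STAR 2.5.2b, Trimmomatic 0.36, DESeq2, and featureCounts from Subread 1.5.2, on build GRCm38. The study's methods state a human build for its RNA-seq and give no separate alignment for the mouse libraries. The signal values deposited by the authors are read counts scaled by a size factor for each library. Every value is a whole multiple of a step (tolerance 0.0001 of a step). No gene stood at 1 step in ED libraries, so reads are inferred and no count model was fitted. The authors also deposited log2 fold changes with p-values and adjusted p-values of their own comparison, which were not used. The table lists genes with a mean of at least 9.87. Values were analysed as log2(value + 1) with limma 3.58.1 in R 4.3.3, with genotype only, a mean-variance trend and no filter, and adjusted p-values over all 15954 genes at 0.05. The pseudocount of 1 understates the change of low genes. The procedure was tested on simulated data. Exon lengths and coordinates came from GENCODE M21, matched by 15917 identifiers, and 22 names were restored from identifiers. The 10 genes and the lists were chosen with earlier results of these data known. Besides the 10 genes, the text names Lactb, Csf1r, the 2 genes of highest mean and the gene of smallest p in each direction of each pathway list, markers of high mean, and the 5 genes most like Abca1. Gm13783 and Ctsa were added because they overlap Nr1h3 and Pltp. Some genes that this rule takes are not reported here.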

Additional observations from a re-analysis of the deposited data

How the results depend on the processing

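No gene was called at an adjusted p under 0.05 by limma under any of the 13 alternatives run. The number of genes at an unadjusted p under 0.05, 290 as reported, was 180 among genes with a mean of at least 50, 498 without the mean-variance trend, and 216 to 912 when 1 library was left out, with 912 without WT replicate 3. Of 129 alternative values of the 10 genes, 113 kept their direction and 16 did not, 15 of them with a library left out. Leaving out 1 library gave log2 fold changes of -0.17 to 0.13 for Abca1, -0.043 to 0.060 for Abcg1, -0.080 to 0.31 for Nr1h3, -0.046 to 0.012 for Rxra, -0.14 to 0.039 for Scarb1, -0.17 to 0.10 for Abca9 and -0.34 to 0.16 for Pltp. Rxra also changed sign, to 0.0053, with libraries scaled to equal totals. Nr1h2, Mylip and Apoc1 kept their direction throughout, and Apoc1 ranged over -1.12 to -0.52. Apoc1 has no value under the filter on a mean of at least 50, and fits by edgeR and DESeq2 were not run. With the mouse number as a replicate block, 403 genes were at an unadjusted p under 0.05 and Apoc1 stood at an unadjusted limma p of 0.0501. Deviations of same-numbered mice had correlations of -0.25, 0.05 and 0.35, and ED mouse 1 was most like WT mouse 2, at 0.40. From 3 mice per genotype, these correlations cannot decide whether same-numbered mice were handled together. The cause of these shifts was not tested. With 3 mice per genotype and 26 to 70 reads of Apoc1 in a library, counting error and mouse-to-mouse scatter limit what can be seen.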
